A study of Mus musculus with 2 samples.

Results

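The genes described here are 32 members of the amino acid response of mouse cells: the transcription factor Atf4, 4 regulators that act with it or downstream of it, the glutathione-degrading enzyme Chac1, 8 enzymes of amino acid and one-carbon synthesis, 6 amino acid transporters and 12 cytosolic aminoacyl-tRNA synthetases. They were chosen by symbol, as known parts of this pathway, from the 55487 genes of the deposited table. Every one of the 32 symbols had an identifier. For Ddit3, which has more than 1 identifier, the one with the higher mean level was taken. All 32 reached a mean of at least 1 FPKM (fragments scaled to the gene length in kilobases and to the total of the library), the minimum for the 12561 measured genes. No member reached 2-fold between the ages.

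The study compared mRNA of apoptotic osteoblasts from young mice and from old mice, with 1 library for each age. Marrow stromal cells grown out of bone pieces were passaged 3 times, kept in osteogenic medium for 3 days and exposed to ultraviolet light for 0.5 h, after which Trypan Blue, which stains dead cells, entered over 90% of them. Both libraries are of irradiated cells, and no unirradiated library was analysed here. The sources used here give no genotype, strain, exact age or number of mice per library. With 1 library per age, no difference below has a replicate check and no p-value was made. The treatment labels read day 0 (young) and day 5 (old), so that day and age cannot be told apart.

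When amino acids run short, or the endoplasmic reticulum is stressed, kinases phosphorylate the initiation factor eIF2, which slows general translation and lets the Atf4 mRNA be translated. ATF4 protein then pairs with C/EBP family proteins on response elements in the promoters of genes that make, import and charge amino acids onto tRNA. In osteoblasts ATF4 is known for its role in amino acid import and the synthesis of collagen, a protein rich in glycine and proline. Ultraviolet light is itself a known trigger of eIF2 phosphorylation. ATF4 protein and eIF2 phosphorylation were not measured in these libraries.

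Gene-assigned reads numbered 16333396 for young and 18114336 for old. Of 9 osteoblast lineage markers 8 were measured. Of these 1 was 2-fold higher in the old library and 0 lower, and 6 had log2 ratios below 0. Over all measured genes 1.97% were 2-fold higher and 0.868% lower, and 59.6% had log2 ratios below 0. Levels in young and old were 8568 and 6788 FPKM for Col1a1, 7482 and 5636 for Col1a2, 3633 and 2785 for Sparc, 92.1 and 72.7 for Runx2, 55.5 and 28.9 for Sp7, and 224 and 1732 for Spp1. The other markers of this lineage were scarce, with Ibsp at 6.31 and 5.90 FPKM, Alpl at 2.78 and 3.28 FPKM, and Bglap, the osteocalcin gene, at 3 and 6 reads. Of 7 leukocyte, 4 endothelial, 4 erythroid and 4 adipocyte markers none reached 1 FPKM, and the highest was Pecam1 at 0.32 FPKM in the young library. Of the chondrocyte markers, Col2a1 was at 53.3 and 46.8 FPKM, while Acan had 0 reads in both. In bulk RNA, fewer cells of a type and less RNA per cell cannot be told apart.

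The DNA word that ATF4 and its C/EBP partners read is shown first, since ATF4 is known to act through it. It was searched as TGATGNAA, on both strands, in RefSeq promoter windows (GRCm38.p6) that run from 250 bases before a gene's start to 50 bases after it. Of the 27 members with a window, 11 (40.7%) held it, compared with 1219 of all 27025 genes with a window (4.51%) and 1304 of all 32851 windows (3.97%). The members are largely known ATF4 targets, so this share describes the list and is no independent support for it. Slc7a5, Cars, Lars, Nars and Wars were not searched. Matches are printed below, each as a run of 30 bases, 5′ to 3′, on the strand that reads TGATGNAA, with the match in capitals.
Trib3, chr2:152344028-152344057, plus strand: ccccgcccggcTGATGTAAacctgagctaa
Chac1, chr2:119351038-119351067, minus strand: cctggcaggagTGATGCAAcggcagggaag
Asns, chr6:7693214-7693243, minus strand: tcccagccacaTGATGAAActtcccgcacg
Pycr1, chr11:120643833-120643862, minus strand: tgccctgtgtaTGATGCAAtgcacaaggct
Slc7a11, upstream match, chr3:50443661-50443690, minus strand: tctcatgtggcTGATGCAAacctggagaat
Slc7a11, downstream match, chr3:50443642-50443671, plus strand: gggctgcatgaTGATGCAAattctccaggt
Slc1a4, chr11:20332699-20332728, plus strand: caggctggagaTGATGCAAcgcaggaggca
Aars, chr8:111033840-111033869, minus strand: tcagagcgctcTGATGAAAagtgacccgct
Gars, chr6:55037960-55037989, minus strand: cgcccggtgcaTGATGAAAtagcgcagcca
Iars, chr13:49682126-49682155, minus strand: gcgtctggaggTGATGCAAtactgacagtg
Tars, chr15:11399655-11399684, plus strand: agctaaccagcTGATGCAAcgggactcctg
Yars, chr4:129189895-129189924, plus strand: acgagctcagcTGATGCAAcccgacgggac

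By role, the word was found in 5 of the 8 synthetases searched, in 2 of 5 transporters, in 2 of 8 enzymes, in 1 of the 5 regulators (Trib3) and in Chac1. The matches of Asns, Gars and Tars lay close to the start site, with their first base at positions −23, −30 and −15 counted from the RefSeq start. Those of Pycr1 and Chac1 lay farther upstream, at −103 and −193. Those of Trib3, Iars, Yars and Aars lay just after the RefSeq start, at 15, 8, 4 and 10. By the gene bounds given for Trib3 below (152337422 to 152344032), its match lies just upstream of the gene. None of the 27 held the palindrome TGACGTCA, the cyclic-AMP response element, which 588 of all windows (1.79%) held. A match is a description of the letters in this window, and no match says only that these letters are not in it.

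**Figure D1:**
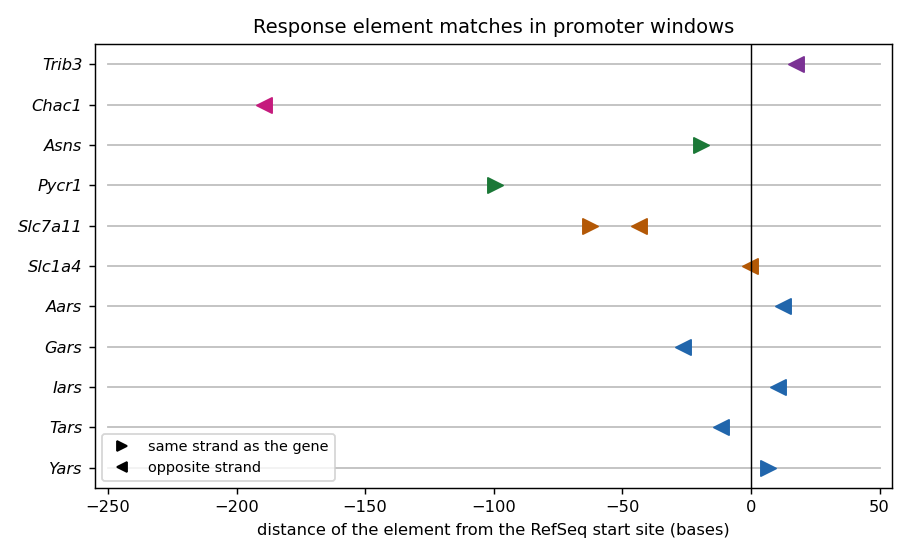
Position of the TGATGNAA matches reported here in the promoter windows of the 11 members that hold it, in bases from the RefSeq start site; triangles pointing right lie on the gene's own strand and those pointing left on the opposite strand. The matches of Slc7a11 both lie upstream and face each other, and Chac1 has the match farthest from its start, at −193.

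Slc7a11 and Chac1 were the least abundant of the 32 mRNAs in both libraries, and their upstream sequence is shown for context, up to the first base of an annotated exon. The Slc7a11 window (chr3:50443615-50443699, minus strand) holds both matches, the second as its reverse complement:
Slc7a11: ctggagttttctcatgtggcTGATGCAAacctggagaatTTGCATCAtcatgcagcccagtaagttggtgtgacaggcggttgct
The Chac1 window (chr2:119351029-119351228, plus strand) holds the match as its reverse complement:
Chac1: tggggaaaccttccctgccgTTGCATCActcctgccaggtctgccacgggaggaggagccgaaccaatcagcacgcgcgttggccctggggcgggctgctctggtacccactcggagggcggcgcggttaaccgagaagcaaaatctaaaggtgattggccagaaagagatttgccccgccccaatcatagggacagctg

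The 32 mRNAs differed far more from each other than between the ages. Their levels ran from 0.801 to 271 FPKM in the young library and from 1.44 to 305 FPKM in the old, with medians of 76.5 and 77.1 FPKM, against medians of 18.2 and 17.5 FPKM over all measured genes. Slc3a2 was the most abundant member and Slc7a11 the least abundant in both libraries. Ranked by level, 28 of the 32 genes moved by at most 2 places between the libraries, and no gene moved by more than 3. The members together took 0.395% of the reads of the young library and 0.414% of those of the old.

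**Figure D2:**
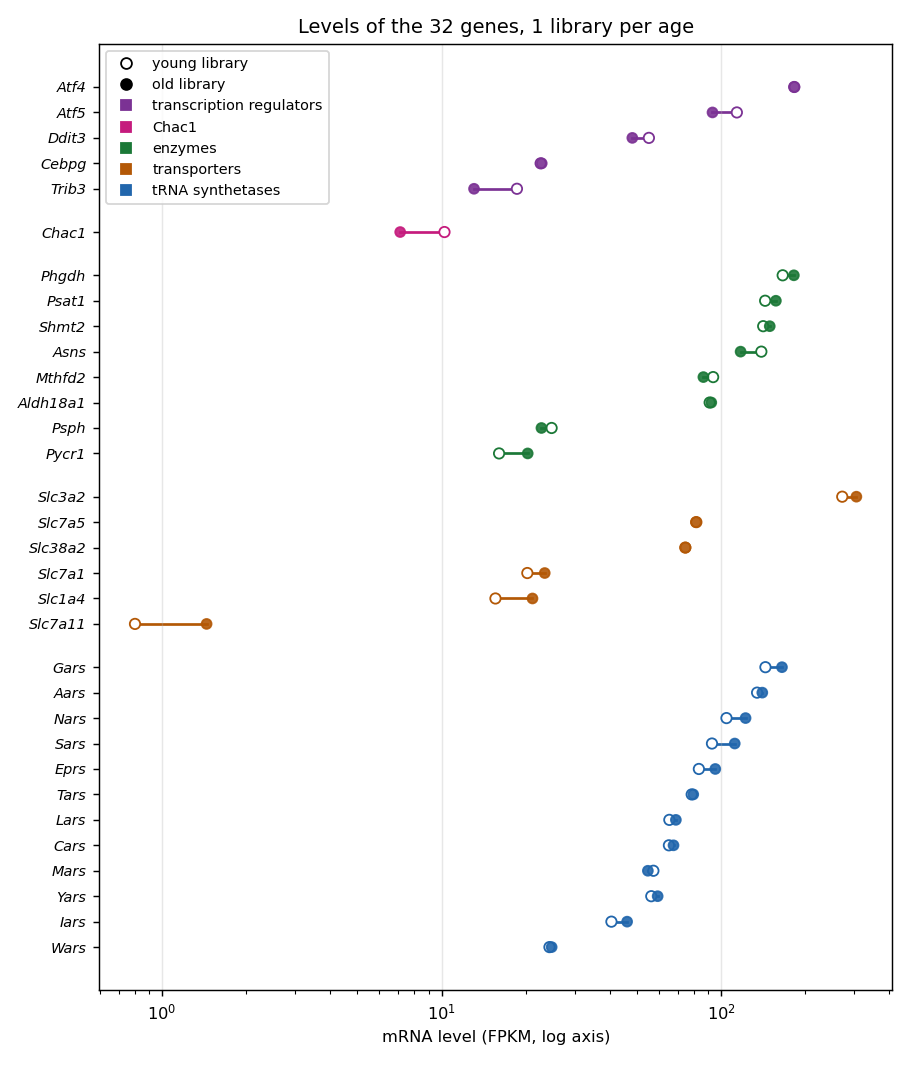
Level of each of the 32 genes in FPKM (log axis) in the young library (open circles) and the old library (filled circles), coloured by role and ordered within a role by the young level. Most pairs of circles touch or lie side by side; Slc7a11, at 0.801 and 1.44 FPKM, stands far to the left of the other transporters.

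The question of the comparison is how apoptotic osteoblasts differ with age. On the scale of log2(FPKM + 1), which understates differences of low genes, 0 of the 32 members were 2-fold higher in the old library and 0 were 2-fold lower, where 1.97% and 0.868% of all measured genes were. At 1.5-fold the counts were also 0 and 0, against 5.52% and 4.47% of all measured genes, shares at which few of 32 genes would be past either line. The median log2 ratio of the members was 0.06 and that of all measured genes −0.07. A ratio above 0 was found for 23 of the 32 members (71.9%) and for 40.4% of all measured genes, and a ratio below 0 for 9 members (28.1%) and for 59.6% of all measured genes.

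For each gene the reads behind its FPKM give a 95% counting interval of the FPKM ratio, old over young, written in square brackets below; it covers counting error only, since PCR copies are not independent molecules and libraries were not repeated. This interval lay wholly above 1 for 14 members (43.8%, against 20.6% of all measured genes) and wholly below 1 for 6 (18.8%, against 33.5%). It held 1 for the other 12 members (37.5%). For 29 of the 32 (90.6%) it lay wholly within 1.5-fold either way, which was so for 66.4% of all measured genes. These shares are not like for like, since the interval narrows with more reads. The median level in the young library was 76.5 FPKM for the members and 18.2 FPKM for all measured genes. The 3 exceptions were Trib3, Chac1 and Slc7a11, the members with the fewest reads.

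**Figure D3:**
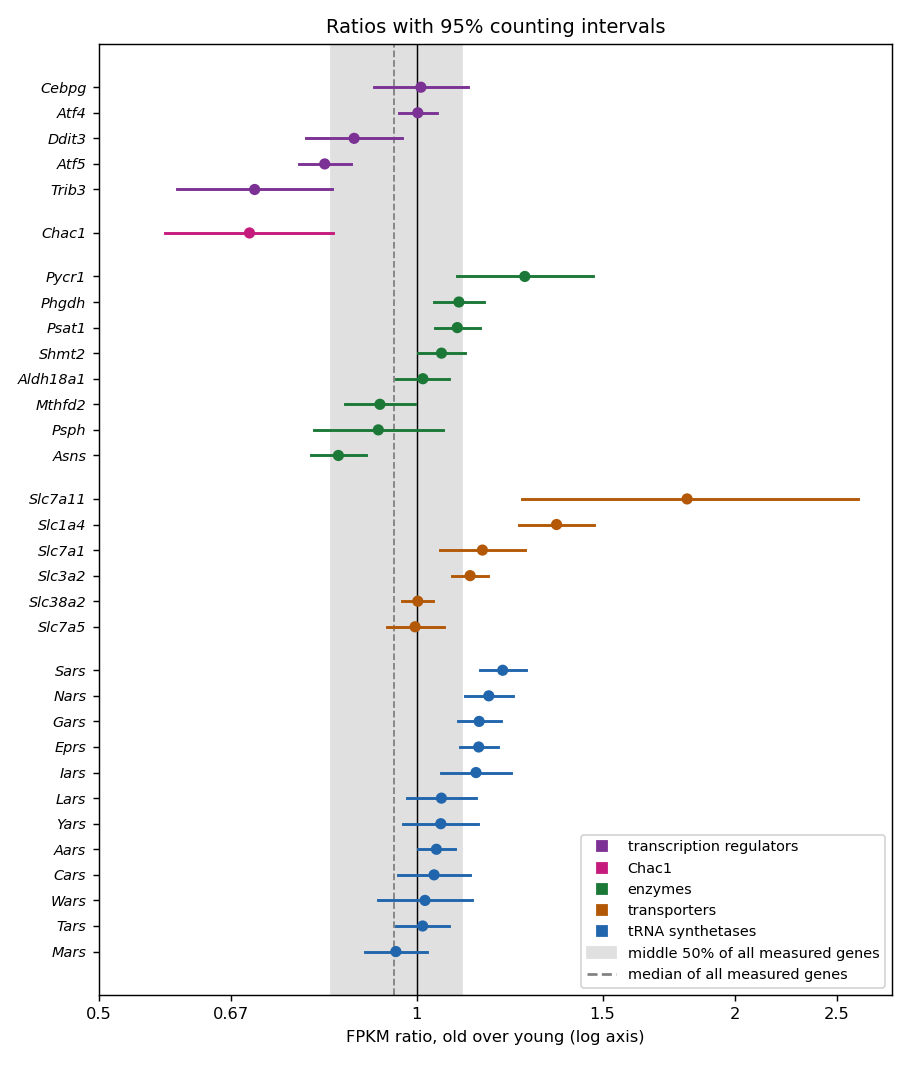
FPKM ratio of old over young (log axis) for each of the 32 genes, with its 95% counting interval as a bar, coloured by role. The grey band spans the middle 50% of all measured genes and the dashed line is their median ratio, 0.952. Atf5, Trib3 and Chac1 lie left of the band, and most synthetases lie inside it or just right of it.

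Among the regulators, the mRNA of Atf4 itself was even between the ages, and those of Atf5, Ddit3 and Trib3 were lower in the old library. Atf4 (ENSMUSG00000042406, chromosome 15, 80255184 to 80257541, GRCm38) was at 183 FPKM in both libraries, on 4377 and 4866 reads, a ratio of 1.002 [0.962 to 1.04]. Cebpg, the C/EBP protein that pairs with ATF4, was likewise even at 22.6 FPKM in the young sample and 22.8 FPKM in the old. Both intervals hold 1, and that of Atf4 leaves room for a counting difference of no more than a few percent.

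Atf5 (ENSMUSG00000038539, chromosome 7, 44812256 to 44816658), a transcription factor whose mRNA is held back from translation in the same way as that of Atf4, was at 114 FPKM in the young sample and 93.2 FPKM in the old, a ratio of 0.818 [0.773 to 0.866]. Ddit3, which encodes CHOP, a factor that promotes cell death under lasting stress, was at 55.2 and 48.1 FPKM, a ratio of 0.872 [0.786 to 0.968]. Part of its sequence cannot be assigned to it alone, as 10.9% of its exon bases are overlapped by other genes, among them its neighbour Mars. Trib3 (ENSMUSG00000032715, chromosome 2, 152337422 to 152344032), a pseudokinase that is induced by ATF4 and CHOP and restrains ATF4, was at 18.6 and 13.1 FPKM on 321 and 250 reads, a ratio of 0.702 [0.593 to 0.831]. Its log2 ratio of −0.48 ranked 11583 among the 12561 measured genes. It was the lowest of the 32 at a pseudocount of 1, while at 0.1 that of Chac1 was lower (−0.52 against −0.51).

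Chac1 (ENSMUSG00000027313, chromosome 2, 119351229 to 119354381) followed closely. It encodes a gamma-glutamyl cyclotransferase that breaks down glutathione, and its mRNA was at 10.2 FPKM in the young sample and 7.12 FPKM in the old, on 274 and 211 reads, a ratio of 0.694 [0.577 to 0.834]. Set against Atf4 in the same library, Trib3 stood at 0.102 of the Atf4 level in the young and 0.0714 in the old, and Chac1 at 0.0561 and 0.0389. On the log2(FPKM + 1) scale, Atf5, Trib3, Chac1 and Asns were the 4 members below the middle 50% of all measured genes. That range ran from −0.24 to 0.13, with 17 members inside it and 11 above it. As a plain FPKM ratio, Asns (0.843) lay inside the middle 50%, which began at 0.830.

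The 8 enzymes of synthesis went both ways around even, with a median log2 ratio of 0.05. In the serine pathway, Phgdh, whose product takes the first step from glycolysis, was at 166 and 182 FPKM in the young and old libraries, and Psat1, the second step, at 144 and 157 FPKM. Their ratios were 1.10 [1.04 to 1.16] and 1.09 [1.04 to 1.15]. The value of Phgdh is uncertain, since 52.5% of its 50-base words also occur in transcripts of other genes. Psph, the phosphatase of the last step, was less abundant than both, at 24.8 and 22.8 FPKM, and its interval of 0.799 to 1.06 holds 1.

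Shmt2 and Mthfd2 carry serine-derived carbon into the mitochondrial folate cycle. Shmt2 was at 141 FPKM in the young sample and 149 FPKM in the old, and Mthfd2 at 93.6 and 86.4 FPKM. Their intervals of 1.002 to 1.11 and 0.855 to 0.996 both end within a few thousandths of 1, on opposite sides of it. The proline enzymes lay a few-fold apart in level, with Aldh18a1 even at 91.0 and 92.2 FPKM and Pycr1, which forms proline in the last step, at 16.1 and 20.3 FPKM, a ratio of 1.27 [1.09 to 1.47].

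Asns (ENSMUSG00000029752, chromosome 6, 7675169 to 7693254), the asparagine synthetase, is among the best known ATF4 targets and was the enzyme with the lowest ratio. It was at 139 FPKM in the young sample and 117 FPKM in the old, on 2241 and 2095 reads, a ratio of 0.843 [0.794 to 0.895]. Asns stood at 0.969 of the Psat1 level in the young library and at 0.748 in the old, so that the order of Asns against Phgdh, Psat1 and Shmt2, all higher, was the same in both.

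The 6 transporters had the highest median log2 ratio of the roles with more than 1 gene, 0.18, with 5 above 0. The 12 other amino acid transporters measured had a median of −0.13, with 4 above 0 and 8 below. This difference was not tested. Slc3a2, the heavy chain (CD98) that carries several light chains to the cell surface, was at 271 FPKM in the young sample and 305 FPKM in the old, a ratio of 1.12 [1.08 to 1.17]. Slc7a5, its light chain LAT1 for large neutral amino acids, was even at 81.6 and 81.3 FPKM, with a ratio of 0.996 [0.936 to 1.06]. The Slc3a2 level was therefore 3.33 times that of Slc7a5 in the young library and 3.75 times in the old.

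Slc1a4 (ENSMUSG00000020142, chromosome 11, 20302180 to 20332713), which carries alanine, serine and cysteine, was at 15.6 FPKM in the young sample and 21.2 FPKM in the old on 993 and 1494 reads. Its ratio of 1.36 [1.25 to 1.47] was the highest of the 32 after that of Slc7a11, and its log2 ratio of 0.42 ranked 1138 of 12561. Slc7a1, the arginine and lysine carrier CAT1, was at 20.3 and 23.4 FPKM, and Slc38a2, the glutamine and proline carrier SNAT2, was even at 74.4 and 74.6 FPKM with an interval of 0.969 to 1.04.

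Slc7a11 (ENSMUSG00000027737, chromosome 3, 49892526 to 50443614), the cystine carrier of system xc- and the other light chain of Slc3a2 in this set, was scarce. It was at 0.801 FPKM in the young library on 47 reads and at 1.44 FPKM in the old on 94, a ratio of 1.80 [1.26 to 2.62]. This was the highest ratio of the 32, and the log2 ratio of 0.44 with a pseudocount of 1 became 0.78 with 0.1, which is past 1.5-fold, and 0.15 with 5. Few reads make this the least precise of the 32 values. Slc7a11 has a match of the response element on each strand, printed above, and its heavy chain Slc3a2 stood 339 times higher in the young and 211 times higher in the old library.

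The 12 synthetases, which load each amino acid onto its tRNA, were close to even as a group. Their median log2 ratio was 0.08, within a range from −0.06 to 0.27, and 11 of the 12 lay above 0. Summed over the 12, the level was 946 FPKM in the young sample and 1036 FPKM in the old, a ratio of 1.09. Sars (ENSMUSG00000068739, chromosome 3, 108424865 to 108445209), for serine, had the highest ratio at 92.8 and 112 FPKM, or 1.21 [1.15 to 1.27]. Nars, for asparagine, followed at 105 and 122 FPKM, or 1.17 [1.11 to 1.23].

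Gars, for glycine, was the most abundant synthetase of the set at 144 FPKM in the young sample and 165 FPKM in the old, a ratio of 1.15 [1.09 to 1.20]. Eprs, whose single protein serves glutamate and proline, was at 83.3 and 95.3 FPKM, also 1.15 [1.10 to 1.19]. Iars, for isoleucine, was at 40.5 and 46.1 FPKM and Aars, for alanine, at 134.5 and 140.4 FPKM. These 6 are the synthetases whose intervals lay wholly above 1, though that of Aars begins at 1.003 and 15.1% of its exon bases are overlapped by other genes.

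The other 6 had intervals that hold 1. Lars was at 65.3 and 68.9 FPKM, Cars at 65.1 and 67.6, Yars at 56.3 and 59.3, and Tars at 78.5 and 79.5, for leucine, cysteine, tyrosine and threonine. Mars, for methionine, was the one synthetase under even, at 57.2 and 54.7 FPKM with an interval of 0.893 to 1.02. Wars, for tryptophan, was the least abundant at 24.3 and 24.8 FPKM, a ratio of 1.02 [0.919 to 1.13].

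Wars is also known to be induced by interferon-gamma. Of 10 other measured interferon-gamma-inducible genes 2 were 2-fold higher in the old library and 0 lower (1.97% and 0.868% of all measured genes were), and 9 had log2 ratios above 0, with a median of 0.61. The exception was Irf1, chosen after its values were seen, at 45.1 and 36.2 FPKM, and the list was led by Gbp3 (13.4 and 36.0 FPKM) and Nlrc5 (4.73 and 12.8 FPKM). Wars, with a log2 ratio of 0.02, lay below 9 of these 10.

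The 11 members with a response element match had a median log2 ratio of 0.07, within a range from −0.48 to 0.44, and the 16 without one had a median of 0.02, within −0.29 to 0.27. Trib3 and Chac1 at the lower end of the range of the 32, and Slc7a11 and Slc1a4 at the upper, carry a match. These were picked after their values were seen. The near-even Tars (0.02), Aars (0.06) and Yars (0.07) carry one too, and 5 members were not searched.

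The rest of the pathway was followed in 8 further lists of 126 genes, of which 112 were measured. Of these 4 were 2-fold higher in the old library and 1 lower, beside 1.97% and 0.868% of all measured genes. At 1.5-fold 9 were higher and 5 lower, beside 5.52% and 4.47%, and the median log2 ratio was 0.00. The remaining cytosolic synthetases and their complex proteins had 4 of 11 ratios above 0 and a median of −0.04, compared with 11 of 12 and 0.08 for the 12 synthetases above; this difference was not tested. Dars (63.0 and 55.2 FPKM), Hars (58.1 and 66.3) and Vars (112 and 126) lay farthest from even. Of 16 measured mitochondrial synthetases none was 2-fold different, and Cars2, at 25.2 and 14.9 FPKM, was the only one past 1.5-fold; Iars2 had a log2 ratio of 0.40 and Rars2 of −0.36.

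Upstream of Atf4, the eIF2 kinases, eIF2, eIF2B and the phosphatase subunits had none of 16 genes past 1.5-fold and a median of −0.03. Of all measured genes 5.52% were 1.5-fold higher and 4.47% lower, shares at which few of 16 genes would be past either line. Eif2ak2, which encodes the interferon-induced double-stranded RNA sensor PKR, was at 90.7 and 117 FPKM, Eif2b1 at 56.4 and 44.1 FPKM, and Ppp1r15a, the stress-induced phosphatase subunit GADD34, at 34.0 and 26.7 FPKM. The listed genes of amino acid sensing upstream of mTORC1 had none of 15 past 1.5-fold and a median of 0.03. Wdr24 (−0.41), Nprl2 (−0.30) and Wdr59 (0.27) lay farthest from even. The sensor Slc38a9 (−1.13) was counted in another list, as was Sesn2 (−0.61), chosen after its values were seen. Both were past 1.5-fold, so the count of 0 does not cover every amino acid sensor. Other genes of glutathione synthesis and breakdown had 6 measured log2 ratios between −0.05 and 0.04. Those farthest from even were Gclc (−0.05) and Gclm (0.04), the subunits of the first enzyme of glutathione synthesis, and Chac2 (0.04), a glutathione-degrading relative of Chac1.

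Differences of 2-fold on the log2(FPKM + 1) scale were found in 3 of these lists, beside 1.97% of all measured genes higher and 0.868% lower. Among other ATF4 targets 2 of 17 were 2-fold higher and 0 lower: Mthfd1l, the mitochondrial enzyme that releases formate, at 10.6 and 26.0 FPKM (ratio 2.47 [2.23 to 2.74]), and Cebpb, a C/EBP factor, at 84.7 and 177 FPKM (other genes overlap 20.7% of its exon bases). Atf3, a stress-induced repressor, was at 3.50 and 1.62 FPKM, under 2-fold on that scale and past it as a plain FPKM ratio (0.462). Among other enzymes 1 of 19 was 2-fold higher, the arginine-cycle enzyme Ass1 at 4.60 and 23.9 FPKM, which shares 44.4% of its words with other genes; Shmt1 (7.20 and 14.5 FPKM, likewise past 2-fold only as an FPKM ratio, 2.02) and Bcat1 (17.5 and 33.4 FPKM) followed. Among other transporters 1 of 12 was 2-fold higher and 1 lower: the taurine carrier Slc6a6, at 245 and 584 FPKM (ratio 2.38 [2.30 to 2.46]), and Slc38a9, the lysosomal arginine sensor, at 7.51 and 2.89 FPKM (ratio 0.384 [0.310 to 0.475]). Slc1a3, a glutamate and aspartate carrier, was at 98.25 and 165 FPKM.

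**Figure D4:**
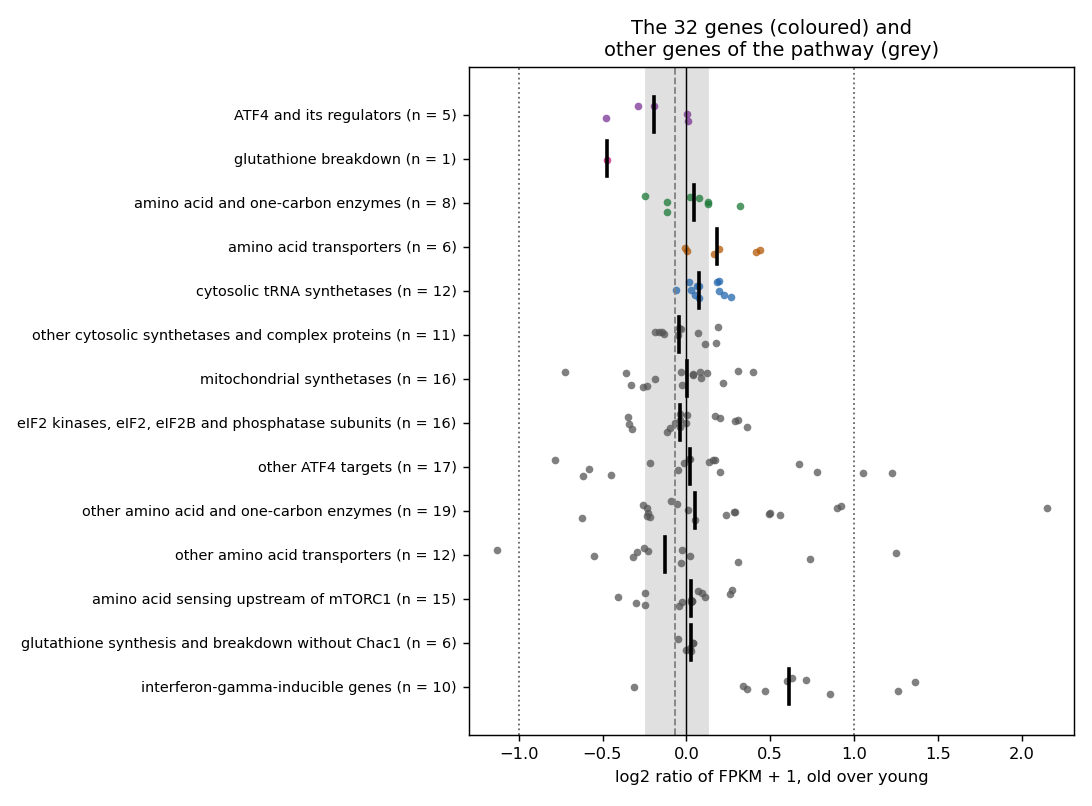
Log2 ratio (old over young, FPKM + 1) of every measured gene of the 5 roles (coloured) and of the other pathway lists (grey), with a black bar at each list's median. The grey band is the middle 50% of all measured genes, the dashed line their median of −0.07 and the dotted lines 2-fold; no coloured point reaches a dotted line, while Mthfd1l, Cebpb, Ass1, Slc6a6 and Slc38a9 do among the other pathway genes and Gbp3 and Nlrc5 among the interferon-gamma-inducible genes.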

How the data were processed

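Per the submitters' processing notes, the tools were edgeR, HTSeq, STAR and fastp and the build was mm10; each role and version, the annotation release and strandedness were not given in the sources used here. The deposited table holds 1 FPKM value per gene and library, made by the authors. Symbols, positions and lengths came from GENCODE M21 (GRCm38), which held 55227 of 55487 identifiers, and promoter sequences from RefSeq (GRCm38.p6), where one promoter match is not reported here.

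Reads were recovered from the FPKM values, with each gene's length taken as the mean of its annotated transcripts, rounded: 97.6% of values above 0, and all 32 members in both libraries, were whole within 0.01. Intervals are exact Clopper-Pearson 95% intervals of the old library's share of a gene's reads, turned into an FPKM ratio. Log2 ratios used a pseudocount of 1 and a minimum mean of 1 FPKM. Sequence shared with other genes was found with 50-base words taken every 25 bases. The calculation was tested on simulated data. Named genes are all members, the markers and the 3 measured genes farthest from even in each further list; any other is said to be chosen after its values were seen. Members and lists were chosen with earlier results of these data known. Python 3.11.15, numpy 2.4.6, pandas 2.3.3 and scipy 1.17.1 were used. The alternatives tried were pseudocounts of 0.1 and 5, no filter and a minimum of 10 FPKM, 3 other scalings, and leaving out genes with over 20% shared words.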

Additional observations from a re-analysis of the deposited data

How the results depend on the processing

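The count of members at 2-fold stayed at 0 in both directions under all 8 alternatives (pseudocounts of 0.1 and 5, no filter, a mean of at least 10 FPKM, centring on the median of all measured genes, rescaling without the 10 most abundant genes, rescaling to an equal FPKM total, and leaving out Phgdh, the member with over 20% shared words). At 1.5-fold the count of higher members went from 0 to 1 at a pseudocount of 0.1, the gene being Slc7a11 (0.78, against 0.44 at 1 and 0.15 at 5), and the count of lower members stayed at 0. The 10 FPKM minimum left out Slc7a11 and Chac1, so that its counts cover 30 members and Chac1 has no value there. The medians of the 32 genes and of each role moved by less than the middle counting half-width of their single genes. That width is not an interval of the median itself, for which none was made. Centring moved the median of the 32 genes most plainly, from 0.06 to 0.12. Of single members, 5 moved by more than the half-width of their counting interval under centring: Atf4, Slc3a2, Slc38a2, Aars and Eprs. This step adds 0.07 to every log2 ratio. Centring put Slc7a5 (0.06) and Mars (0.00) above 0, and rescaling without the 10 most abundant genes put Atf4 and Slc38a2 at −0.003. Over all measured genes, the 2-fold counts of 248 higher and 109 lower became 408 and 236 with a pseudocount of 0.1, 101 and 20 with 5, and 106 and 27 with the 10 FPKM minimum. Read depth limits Slc7a11 most, with 47 and 94 reads. No paired analysis was possible because each age has 1 library.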

Other observations

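Folate and transaminase enzymes around the 32 genes are described here, chosen after their values were seen and with no test. Shmt2 and Mthfd2 were within 1.1-fold of even. The cytosolic partner Shmt1 stood at 7.20 FPKM in the young sample and 14.5 FPKM in the old (ratio 2.02 [1.64 to 2.51]), Mthfd1, the cytosolic enzyme that joins formate to folate, at 32.6 and 46.3 FPKM, and Mthfd1l at 10.6 and 26.0 FPKM. The branched-chain transaminases were higher in the old library in both compartments, with Bcat1 at 17.5 and 33.4 FPKM and Bcat2 at 23.1 and 33.1 FPKM, and so were the aspartate transaminases Got1 (31.1 and 46.3 FPKM) and Got2 (92.1 and 113 FPKM, with 22.4% of its words shared).

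Among ATF4 targets outside the 32, also chosen after their values were seen, Cth, which makes cysteine, was at 2.27 and 4.21 FPKM and the glycine carrier Slc6a9 at 13.3 and 23.5 FPKM, where other genes overlap 30.2% of its exon bases. Sesn2, which is also a p53 target, was lower in the old library at 43.6 and 28.1 FPKM, and Jdp2 at 52.6 and 34.8 FPKM. Ddit4, Nupr1 and Herpud1 had log2 ratios of 0.01, 0.02 and −0.01. These values rest on 1 library per age and carry no test.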
